A study of Mus musculus with 6 samples.

Results

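The genes described here are the 5 chains of the interferon receptors (Ifnar1, Ifnar2, Ifngr1, Ifngr2 and Ifnlr1), the Janus kinases Jak1, Jak2 and Tyk2, and the suppressors of cytokine signalling Socs1 and Socs3. They were taken by symbol from the deposited expression table, which held all 10 of them among 21397 genes. RNA was sequenced from small intestinal organoids, which are epithelial cultures grown from crypts, of adult Fpr2f/f mice on a C57BL/6J background. These mice carry floxed Fpr2 alleles and no Cre, in both groups alike. One group received 1 μM MMK-1, a synthetic peptide agonist of the formyl peptide receptor FPR2, for 5 days, and the control group received the vehicle, 0.1% DMSO. Each group had 3 libraries, and the study's text states that a sample contained organoids of 3 mice. On the dose the labels differ, since the treatment field gives 1 mM, whereas the protocol text and the study's methods give 1 μM, and the latter was taken as the dose.

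Interferons reach the nucleus through one short chain of proteins. Type I interferons bind IFNAR1 and IFNAR2, type II interferon binds IFNGR1 and IFNGR2, and type III interferons, which act mainly on epithelia such as that of the gut, bind IFNLR1 paired with IL10RB. JAK1 and TYK2 are attached to the type I and type III receptors and JAK1 and JAK2 to the type II receptor, and they phosphorylate STAT factors. SOCS1 and SOCS3 are induced by the same signalling and inhibit it, through the kinases or the receptors.

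Levels were given by the authors as FPKM, fragments on a gene scaled by gene length and library total, so levels of different genes are compared per length. Library totals, computed from the FPKM steps, lay between 35512739 and 37537463 fragments, with control libraries in the upper part of that range. MMK-1 replicate 3 stood apart within its group, with a median absolute log2 difference of 0.102 from the other MMK-1 libraries against 0.0623 to 0.0676 for those and 0.0403 to 0.0481 in controls. All 8 epithelial markers were tested and expressed in both groups, but their levels differed, with 4 called lower and 2 higher in the limma test, where 24.7% and 48.5% of all genes tested were, and a summed FPKM of 3921 to 3958 in control and 2742 to 2954 in MMK-1 libraries. After upper-quartile scaling 6 were lower and 1 was higher, where 34.0% and 38.3% of all genes were. Epcam, an adhesion protein of epithelia, had a mean FPKM of 391.7 in control and 390.8 in MMK-1 libraries, while Vil1, a protein of the brush border, and the keratin Krt20 had log2 fold changes of -1.21 and -1.52. Summed FPKM of 10 enterocyte markers was 9724 to 9822 in control and 5409 to 5837 in MMK-1 libraries, and that of 7 stem cell markers was 71.8 to 73.9 and 403.1 to 429.8. In these bulk libraries fewer cells of a type and less RNA per cell cannot be told apart, for every gene below. The part of these marker shifts in the changes below was not tested.

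With MMK-1, 3 of the 5 receptor chains, Ifnar2, Ifngr2 and Ifnlr1, and the kinase Tyk2 were lower, and the kinase Jak1 was higher, as was the chain Ifngr1 on the deposited scale but not after upper-quartile scaling. Mean FPKM of Ifnar2 fell by 48.6% and that of Tyk2 fell by 28.5%, and Ifngr2 fell by 19.6% and Ifnlr1 fell by 16.9%, while Jak1 was 18.5% and Ifngr1 9.23% higher. Ifnar1, Jak2 and Socs3 were not called, and Socs1 was too low to be tested. Log2(FPKM + 1) was tested with limma-trend in the 10551 genes whose mean FPKM was 1 or more, with calls at a p adjusted by Benjamini-Hochberg of at most 0.05, and 9 of the 10 genes were tested. Of these 9, 2 were called higher, where 48.5% of all genes tested were called higher, and 4 were called lower, where 24.7% were called lower. In either direction 73.2% of all genes tested were called.

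The median log2 fold change of the 9 genes was -0.12, against 0.13 over all genes tested. Upper-quartile scaling of the libraries moved the median of all genes by 0.10, to 0.03. With that scaling 1 of the 9 genes was called higher, against 38.3% of all genes, and 5 were called lower, against 34.0%. Jak1 was then the gene called higher, and Ifnar1 joined those called lower. Without MMK-1 replicate 3 the same limma test also called Jak2 higher and Ifnar1 lower. The share of all genes called in that fit is not given here.

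None of the 9 tested genes reached a fold change of at least 2 with a limma p of at most 0.05, which 7.04% of all genes tested did. The count was also 0 with limma-voom on whole fragments. An unadjusted limma p under 0.05 was found for 6 of the 9, while 73.2% of all genes tested passed even the adjusted threshold of 0.05. Ifnar2 was the only one of the 9 with an absolute log2 fold change above 0.5, which 28.4% of all genes tested passed, while the middle of all genes ran from -0.14 at the lower to 0.41 at the upper quartile. The FPKM of control and MMK-1 libraries did not overlap in 6 of the 9, where 76.8% of all genes tested did not overlap. An exact permutation test of 3 against 3 libraries cannot go below p = 0.100, the value of each of these 6.

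**Figure D1:**
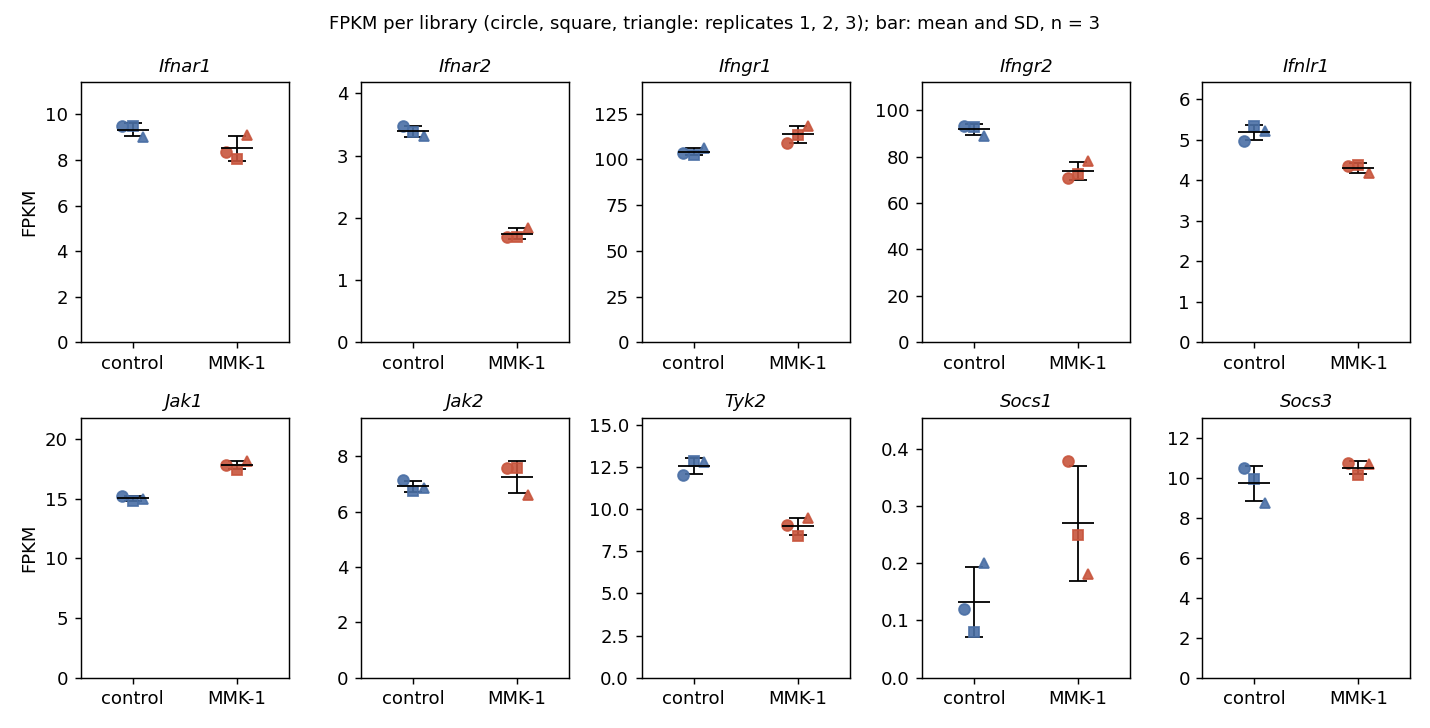
FPKM (vertical axes, each from 0) of the 10 genes in the 3 control and 3 MMK-1 libraries, with bars for the mean and SD of each group. The groups are apart for Ifnar2, Ifngr1, Ifngr2, Ifnlr1, Jak1 and Tyk2 and overlap for Ifnar1, Jak2, Socs1 and Socs3; the Ifngr1 difference is not called after upper-quartile scaling.

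The 10 genes spanned a wide range of levels. In control libraries the order by mean FPKM was Ifngr1, Ifngr2, Jak1, Tyk2, Socs3, Ifnar1, Jak2, Ifnlr1, Ifnar2 and Socs1, and Socs3 and Ifnar1 were the only neighbours whose values overlapped. With MMK-1 the order was Ifngr1, Ifngr2, Jak1, Socs3, Tyk2, Ifnar1, Jak2, Ifnlr1, Ifnar2 and Socs1, with an overlap of Tyk2 and Ifnar1 alone. Tyk2 thus moved from above Socs3 and apart from Ifnar1 to below Socs3 and level with Ifnar1. The chains of the type II receptor were far above the others in both groups. FPKM of Ifngr2, the lower of that pair, was 9.81 to 9.90 times that of Ifnar1 in control and 8.49 to 8.98 times in MMK-1 libraries. Against Ifnlr1 it was 17.0 to 18.8 times in control and 16.3 to 18.7 times in MMK-1 libraries.

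Ifnar2 encodes the high-affinity chain of the type I receptor, and its gene lies at chr16:91372783-91405589 on the plus strand (GRCm38, GENCODE vM21). Its FPKM was 3.48, 3.38 and 3.31 in control and 1.69, 1.69 and 1.84 in MMK-1 libraries, resting on 825 to 870 and 401 to 457 fragments. All MMK-1 libraries were below all controls, by more than the spread within either group. The log2 fold change was -0.68 (SE 0.054, limma adjusted p = 6.5e-06) and -0.76 with upper-quartile scaling. The scale of log2(FPKM + 1) understates low genes, and the log2 ratio of the mean FPKM was -0.96. GENCODE lists another protein-coding model on the same strand, Gm21970, whose exons overlap those of Ifnar2.

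Ifnar1 encodes the chain that completes the type I receptor and recruits TYK2, and lies at chr16:91485238-91507441 on the plus strand. FPKM was 9.51, 9.48 and 8.99 in control and 8.35, 8.06 and 9.12 in MMK-1 libraries. MMK-1 replicate 3 lay within the control range and the other MMK-1 libraries lay below it, so the groups overlapped. The log2 fold change was -0.12 (SE 0.055, limma adjusted p = 0.0762). It was -0.23 (adjusted p = 0.0028) with upper-quartile scaling and -0.16 (adjusted p = 0.0077) without MMK-1 replicate 3, both past the limma threshold. The ratio of Ifnar1 to Ifnar2 within a library does not depend on scaling between libraries. It was 2.73, 2.81 and 2.72 in control and 4.94, 4.76 and 4.95 in MMK-1 libraries, a 1.77-fold difference (exact permutation p = 0.100, adjusted p = 0.117 over 7 ratios). The chains of the type I receptor therefore changed by unequal amounts in these libraries, beyond the spread within groups, in a design that cannot pass the threshold.

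Ifngr1, at chr10:19591949-19610229 on the plus strand, encodes the chain that binds interferon gamma. FPKM was 103.5, 102.5 and 106.2 in control and 109.0, 113.5 and 118.4 in MMK-1 libraries, without overlap. The log2 fold change was 0.13 (SE 0.042, limma adjusted p = 0.0247), close to the median of all genes, and with upper-quartile scaling it was 0.0068 (adjusted p = 0.867). The limma call was also lost without control replicate 1, without control replicate 2 and without MMK-1 replicate 2, with adjusted p of 0.0728, 0.0994 and 0.0601.

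Ifngr2, at chr16:91547072-91565623 on the plus strand, encodes the signal-transducing chain of the same receptor. Its FPKM was 93.3, 92.9 and 89.0 in control and 70.9, 72.4 and 78.0 in MMK-1 libraries. Every MMK-1 library was below every control, with replicate 3 the closest to them. Its fold change on the log2 scale was -0.31 (SE 0.047, limma adjusted p = 3.3e-04), and -0.43 with upper-quartile scaling. The ratio of Ifngr1 to Ifngr2 went from 1.11, 1.10 and 1.19 in control to 1.54, 1.57 and 1.52 in MMK-1 libraries (exact permutation p = 0.100, adjusted p = 0.117). Summed FPKM of the pair overlapped between groups, at 195.2 to 196.7 in control and 180.0 to 196.4 in MMK-1 libraries.

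Ifnlr1, at chr4:135686287-135708181 on the plus strand, encodes the chain specific to type III interferons. FPKM was 4.97, 5.35 and 5.23 in control and 4.36, 4.38 and 4.18 in MMK-1 libraries, each group narrow and apart from the other. Ifnlr1 had a log2 fold change of -0.22 (SE 0.050, limma adjusted p = 0.00341), and of -0.32 with upper-quartile scaling. Its partner Il10rb, also a chain of the receptors for IL-10 and IL-22, was more abundant and fell as well. Il10rb had 40.4, 40.1 and 41.0 FPKM in control and 23.8, 23.7 and 25.2 in MMK-1 libraries, a log2 fold change of -0.72 (SE 0.041, limma adjusted p = 9.5e-07). The ratio of Ifnlr1 to Il10rb was 0.123, 0.133 and 0.128 in control and 0.183, 0.185 and 0.166 in MMK-1 libraries (exact permutation p = 0.100, adjusted p = 0.117).

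Ifnar2, Il10rb, Ifnar1 and Ifngr2 stand in this order within 193 kb of chromosome 16, on the same strand. The limma test called 3 of these 4 genes lower, where 24.7% of all genes tested were, all but Ifnar1, which was also called lower after upper-quartile scaling. Within 300 kb of the cluster 8 other genes were tested, of which 3 were called higher and 2 lower, against 48.5% and 24.7% of all genes tested, and their median was 0.095 on the log2 scale. The nearest tested genes, Tmem50b and Dnajc28, were both lower, each with a log2 fold change of -0.63 (limma adjusted p = 1.0e-05 and 2.6e-04), although Dnajc28, at 1.58 FPKM in control and 0.668 with MMK-1, passed the filter only through its control level and had to differ. The next ones, Gart, Son and Donson, were higher, with 0.43, 0.24 and 0.56 (limma adjusted p = 2.4e-05, 8.5e-04 and 8.9e-05).

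Jak1, at chr4:101152367-101265282 on the minus strand, encodes the kinase shared by all interferon receptors. FPKM was 15.2, 14.8 and 15.0 in control and 17.9, 17.4 and 18.1 in MMK-1 libraries, with every MMK-1 library above every control. The log2 fold change was 0.23 (SE 0.040, limma adjusted p = 8.2e-04), and 0.12 (adjusted p = 0.0137) with upper-quartile scaling. Its exons overlap those of Raver2 on the opposite strand, which had a mean FPKM of 0.0067 in control and 0.0070 in MMK-1 libraries.

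Tyk2, at chr9:21104068-21131243 on the minus strand, encodes the kinase attached to IFNAR1 and IL10RB. FPKM was 12.03, 12.84 and 12.82 in control and 9.05, 8.43 and 9.46 in MMK-1 libraries, without overlap. Tyk2 had a log2 fold change of -0.44 (SE 0.054, limma adjusted p = 8.6e-05), and of -0.55 with upper-quartile scaling. An annotated antisense gene, 1700084C06Rik, overlaps exons of Tyk2, and whether strand was used in counting is not given in the sources used here.

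Jak2, at chr19:29251828-29313080 on the plus strand, encodes the kinase attached to IFNGR2. FPKM was 7.14, 6.73 and 6.85 in control and 7.59, 7.58 and 6.59 in MMK-1 libraries. MMK-1 replicate 3 was the lowest of all 6 libraries, and the other MMK-1 libraries were the highest. The log2 fold change was 0.06 (SE 0.060, limma adjusted p = 0.393), -0.045 with upper-quartile scaling, and 0.12 (adjusted p = 0.0320) without MMK-1 replicate 3, which was past the threshold.

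Ratios of the other kinases to Tyk2 were higher in every MMK-1 library than in any control. The ratio of Jak1 to Tyk2 was 1.27, 1.15 and 1.17 in control and 1.97, 2.07 and 1.92 in MMK-1 libraries, and that of Jak2 to Tyk2 was 0.593, 0.524 and 0.535 and then 0.838, 0.899 and 0.697. Neither ratio overlapped between groups, and both had an exact permutation p = 0.100 and an adjusted p = 0.117. Jak1 to Jak2 was 2.13 to 2.20 in control and 2.30 to 2.75 in MMK-1 libraries, with a difference in log2 ratio of 0.18 that became 0.096 without MMK-1 replicate 3. The sum of Jak1, Jak2 and Tyk2 was 34.4 to 34.7 FPKM in control and 33.4 to 34.5 in MMK-1 libraries, so the groups overlapped in total. The remaining kinase of the family, Jak3, which serves receptors with the common gamma chain, had 5.58, 5.43 and 5.27 FPKM in control and 2.99, 2.53 and 3.12 in MMK-1 libraries. Jak3 fell, with a log2 fold change of -0.73 (SE 0.067, limma adjusted p = 1.5e-05).

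**Figure D2:**
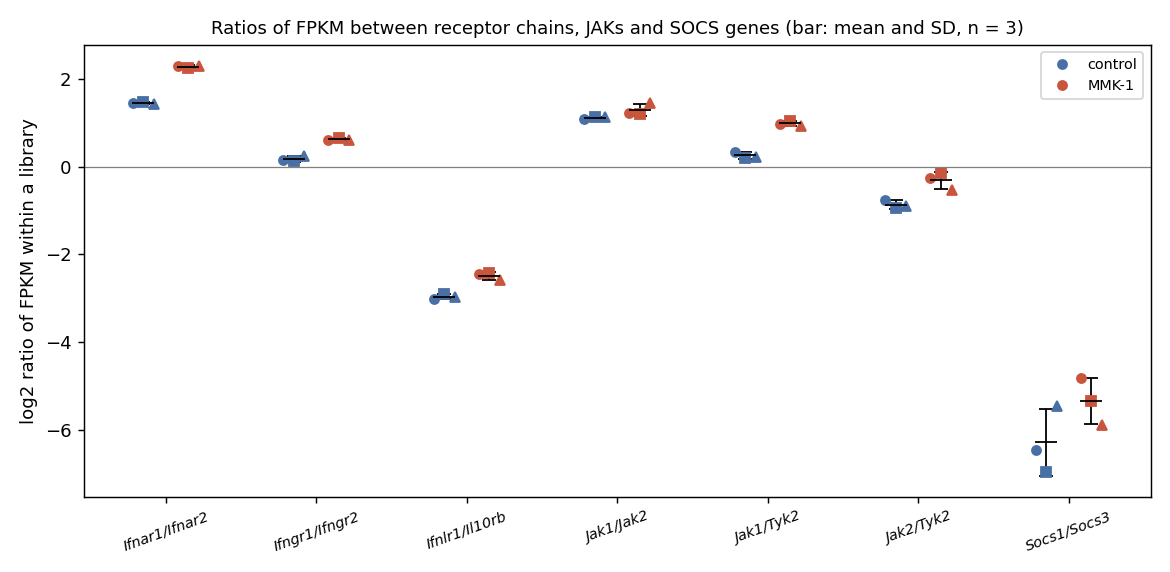
Log2 ratio of FPKM (vertical axis) of 7 pairs of genes within each library, with bars for the mean and SD of 3 libraries per group. The groups are apart for 6 ratios, each with the smallest exact permutation p the design allows, 0.100, and overlap for Socs1 to Socs3.

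Socs3, at chr11:117966079-117970047 on the minus strand, encodes an inhibitor of cytokine receptors that signal through STAT3. FPKM was 10.5, 9.97 and 8.76 in control and 10.7, 10.1 and 10.7 in MMK-1 libraries. The groups overlapped, and control replicate 3 was the lowest library. Socs3 had a log2 fold change of 0.10 (SE 0.065, limma adjusted p = 0.172), and of -0.0044 with upper-quartile scaling.

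Socs1, at chr16:10782240-10785536 on the minus strand, encodes a direct inhibitor of JAK kinase activity. It was near the limit of detection, with 6, 4 and 10 fragments in control and 18, 12 and 9 in MMK-1 libraries, or 0.120, 0.0795 and 0.200 FPKM and 0.378, 0.249 and 0.181 FPKM. MMK-1 replicate 3 lay below control replicate 3, so the groups overlapped. Over the pooled fragments, 20 in control and 39 in MMK-1 libraries, the ratio after scaling for library totals was 2.02, with an exact 95% interval of 1.15 to 3.65 that covers counting error only. The limma fit over every gene above 0, with a pseudocount of 0.1, gave a log2 fold change of 0.66 with an adjusted p of 0.0969, and the exact permutation p was 0.200. A difference of Socs1 was thus not detectable across libraries at this depth. The ratio of Socs1 to Socs3 also overlapped between groups (exact permutation p = 0.200).

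**Figure D3:**
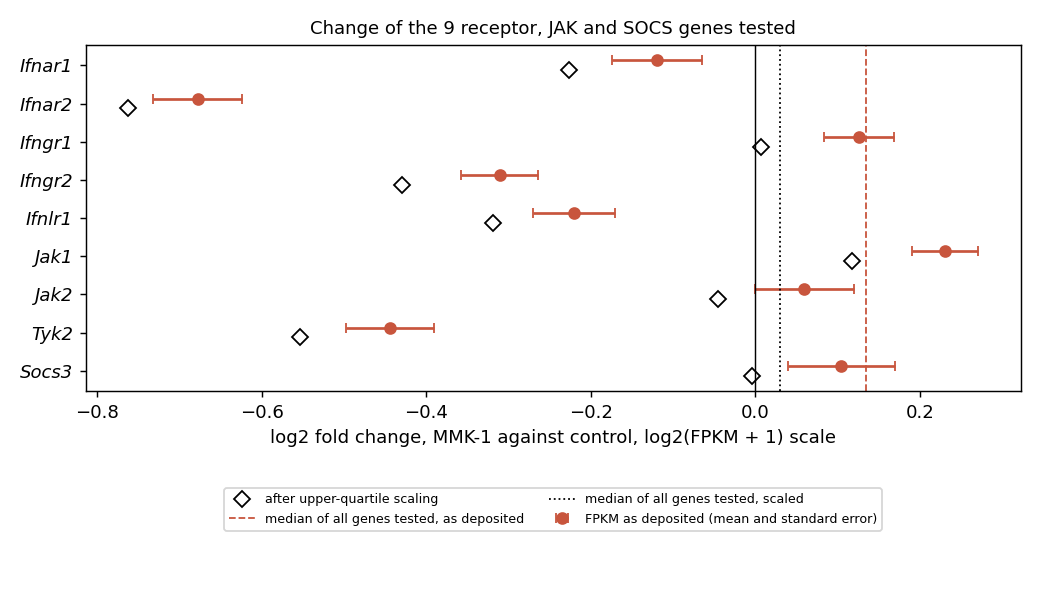
Log2 fold change on the log2(FPKM + 1) scale (horizontal axis) of the 9 tested genes, as deposited (circles with the limma standard error) and after upper-quartile scaling (diamonds), with the median of all genes tested under each. Ifnar2, Tyk2, Ifngr2 and Ifnlr1 are below 0 under both, Jak1 is above 0 under both, Ifngr1 is at 0.0068 after scaling, and Jak2 and Socs3 are above 0 as deposited and below 0 after scaling.

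The upstream sequences of Ifnar2, which had the largest log2 fold change of the 9 tested genes, and of Socs1, which held the interferon element described here, are shown for comparison with the sites that interferon-activated factors bind. Each is the 250 bases before the RefSeq start on GRCm38.p6, for Ifnar2 at chr16:91372533-91372782 on the plus strand and for Socs1 at chr16:10785537-10785786 on the minus strand. Capitals mark matches to TTCNNNGAA, the gamma-activated site of STAT dimers, in Ifnar2, and to GAAANNGAA, the core of the interferon-stimulated response element bound by complexes of STAT factors with IRF9, in Socs1.
Ifnar2: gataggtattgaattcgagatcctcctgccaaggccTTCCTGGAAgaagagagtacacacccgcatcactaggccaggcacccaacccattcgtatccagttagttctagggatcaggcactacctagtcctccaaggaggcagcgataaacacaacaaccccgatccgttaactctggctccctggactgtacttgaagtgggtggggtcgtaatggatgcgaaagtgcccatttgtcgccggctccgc
Socs1: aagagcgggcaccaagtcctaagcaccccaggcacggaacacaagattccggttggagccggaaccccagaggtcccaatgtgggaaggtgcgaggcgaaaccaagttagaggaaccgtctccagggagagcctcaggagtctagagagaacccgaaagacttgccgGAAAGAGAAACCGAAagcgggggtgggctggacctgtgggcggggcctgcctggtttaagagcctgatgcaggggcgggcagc
The match in Ifnar2 lies 214 to 206 bases before the start. Socs1 holds 2 overlapping matches, from 83 to 75 and from 77 to 69 bases before the start. Windows from 250 bases before to 50 bases after the start were searched on both strands for all 10 genes. The interferon element was found in Socs1 alone of the 10 and in 8.56% of 32851 windows of all genes. TTCNNNGAA was found in Ifnar1, Ifnar2 and Socs3 and in 8.30% of all windows. A match is a description of the letters, and binding was not measured.

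Downstream of the receptors and kinases, Stat2 and Irf9, which act together in interferon signalling, were lower with MMK-1. Stat2 went from 13.7, 12.9 and 13.4 to 7.65, 7.95 and 9.06 FPKM, a log2 fold change of -0.64 (limma adjusted p = 2.3e-05). Irf9, its DNA-binding partner, had 8.93, 8.84 and 8.98 FPKM in control and 4.09, 3.32 and 4.36 in MMK-1 libraries, a log2 fold change of -1.02 (limma adjusted p = 4.9e-06). Neither Stat2 nor Irf9 overlapped between groups. Stat3, which serves the IL-6 and IL-22 families, had 16.6, 17.2 and 17.4 FPKM in control and 16.1, 16.3 and 17.5 in MMK-1 libraries. Its log2 fold change was -0.04 (limma adjusted p = 0.487), and -0.15 with an adjusted p of 0.00992 after upper-quartile scaling. Stat6, of IL-4 and IL-13 signalling, was higher, with 31.6, 31.5 and 31.0 FPKM in control and 35.8, 36.7 and 38.3 in MMK-1 libraries (log2 fold change 0.23, limma adjusted p = 0.00103). Stat5a was lower, with a log2 fold change of -0.26 (limma adjusted p = 0.0104), and Stat5b was not called, at -0.12 (limma adjusted p = 0.189), but was past the threshold after upper-quartile scaling, at -0.20 (adjusted p = 0.0316).

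From a list of 20 interferon targets 17 were analysed, and all 17 were above 0 in some library. The limma fit over every gene above 0, with a pseudocount of 0.1, called 14 of these 17 lower and 0 higher, where it called 15.3% of all such genes lower and 28.3% higher. Of the 17, 10 passed the filter, and all 10 were called lower, on the deposited scale and after upper-quartile scaling, where 24.7% and 34.0% of all genes tested were. However, 5 of the 10 had a mean FPKM under 1 with MMK-1 and passed only through their control level, so that they had to differ, and the count over the 10 is given as a description. The call of Irf1, a further factor of the list, at -0.16 on the log2 scale, was lost without control replicate 1 or 2 or MMK-1 replicate 1 or 2, with limma adjusted p of 0.0602 to 0.165. Oasl2, Isg15 and Ifit3, given next, are among the 5 that passed only through their control level. Oasl2, a member of the oligoadenylate synthetase family, fell from 8.59 ± 0.223 to 0.595 ± 0.101 FPKM (SD, n = 3). Isg15, a ubiquitin-like modifier, fell from 4.11 ± 0.958 to 0.147 ± 0.040 FPKM, and Ifit3, an antiviral protein, from 3.44 ± 0.279 to 0.055 ± 0.020 FPKM. Irf7, a factor that amplifies type I interferon expression, fell from 20.5 ± 1.46 to 4.96 ± 0.406 FPKM. Among the 5 receptor chains described the largest log2 fold change was that of Ifnar2, -0.68, and the difference between the lists was not tested. Summed FPKM of the targets was 66.5 to 69.2 in control and 19.8 to 20.7 in MMK-1 libraries.

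Usp18, an inhibitor that binds IFNAR2, was below the filter and is named after its values were seen. It had 118, 116 and 122 fragments in control and 5, 6 and 4 in MMK-1 libraries, or 1.79 and 0.078 mean FPKM. In the limma fit over every gene above 0 its log2 fold change was -3.41 (adjusted p = 1.0e-05).

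Other genes of the SOCS family, which encode inhibitors of cytokine signalling, were mostly higher with MMK-1. All 4 tested genes were called higher, where 48.5% of all genes tested were, and also after upper-quartile scaling, where 38.3% were. The fit over every gene above 0 called 5 of the 6 genes higher, all but Cish (limma adjusted p = 0.0582), where 28.3% of all such genes were. Socs2, an inhibitor of growth hormone signalling, had 2.93, 2.92 and 2.68 FPKM in control and 5.89, 5.98 and 5.87 in MMK-1 libraries, a log2 fold change of 0.85 (limma adjusted p = 1.1e-06). Socs6 rose by 0.87 and Socs7 by 0.38 on the log2 scale (limma adjusted p = 1.9e-04 and 3.0e-04). Socs4 had 20.8, 21.0 and 12.3 FPKM in MMK-1 libraries and 9.59 to 10.01 in control, a log2 fold change of 0.78 (SE 0.170, limma adjusted p = 0.00284). MMK-1 replicate 3 was the low library for Socs4 and, at 6.28 against 8.91 and 9.36 FPKM, for Socs6. Socs5 and Cish were under the filter, with mean FPKM of 0.512 and 0.271 in control and 0.893 and 0.445 in MMK-1 libraries.

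Among 9 tested negative regulators of other kinds, 5 were called higher and 3 lower, where 48.5% and 24.7% of all genes tested were. The call of Ptpn1, one of those higher, was lost without control replicate 1 or 2 or MMK-1 replicate 3, with limma adjusted p of 0.0532 to 0.0910. The phosphatase gene Ptpn6, which encodes SHP-1, fell from 14.0 ± 0.757 to 7.54 ± 0.680 FPKM (SD, n = 3), a log2 fold change of -0.81, and Pias3, an inhibitor of STAT3, had a log2 fold change of -0.28. Pias2, of the same family, and Ptpn11, which encodes SHP-2, were higher by 0.56 and 0.28. After upper-quartile scaling 4 were called higher and 3 lower, where 38.3% and 34.0% of all genes were.

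Receptors for other cytokines also use JAKs. Of 24 analysed, 10 were tested, at a median of -0.24 on the log2 scale. The limma test called 7 of them lower and 0 higher, where 24.7% and 48.5% of all genes tested were. The counts were equal after upper-quartile scaling, where 34.0% and 38.3% of all genes were. Among the 7, the call of Il22ra1, at -0.13, was lost without control replicate 1 or 2 or MMK-1 replicate 1 or 2, with limma adjusted p of 0.0716 to 0.121. The fit over every gene above 0 called 6 of the 24 lower and 1 higher, where 15.3% and 28.3% of all such genes were. The latter was Il12rb1, a chain of the IL-12 and IL-23 receptors that is named after its values were seen, with 2, 9 and 2 fragments in control and 37, 33 and 45 in MMK-1 libraries (log2 fold change 1.27, limma adjusted p = 6.3e-04). Among the tested genes the largest changes were those of Il11ra1, the receptor of IL-11, at -0.81, Crlf2, a chain of the TSLP receptor, at -0.36, Il4ra at -0.32 and the growth hormone receptor Ghr at -0.31. Ghr was lowest in MMK-1 replicate 3, at 9.87 against 13.9 and 13.6 FPKM, and its log2 fold change was -0.16 without that library. Its limma call was lost without control replicate 1 and without control replicate 2, with adjusted p of 0.0828 and 0.0843. Of 6 tested targets of STAT3, 2 were called higher and 3 lower, where 48.5% and 24.7% of all genes tested were. The call of Bcl2l1, one of those lower, was lost without control replicate 2 or 3 or MMK-1 replicate 1, with limma adjusted p of 0.0515 to 0.0607. Reg3b and Reg3g, antimicrobial lectins, fell by 5.05 and 2.23 on the log2 scale, and Bcl3 and Junb were higher by 0.78 and 0.52.

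Little can be said of the interferons themselves, since of 21 ligand genes on the list 3 were analysed and the others were not analysed here. Ifne and Ifnz were at 0 in every library. Ifng had 0.022 FPKM in control replicate 3 and was at 0 in the other libraries. Protein secretion was not measured.

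Over all 48 tested genes of the pathway outside the 10, 12 were called higher and 29 lower, against 48.5% and 24.7% of all genes tested, and 11 and 32 after upper-quartile scaling. Those called lower include 5 interferon targets that passed the filter only through their control level and had to differ. The counts over the 48 are therefore given as a description. Without the ligands and the targets of interferon and STAT3, 10 of 32 were called higher and 16 lower, and 9 and 18 after upper-quartile scaling. The broader JAK-STAT pathway of the table's KEGG annotation includes all 10 genes. Of its 71 tested genes 30 were called higher and 25 lower, with a median of 0.03, where 48.5% and 24.7% of all genes tested were. After upper-quartile scaling 25 were higher and 32 lower, where 38.3% and 34.0% of all genes were.

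Markers of cells other than epithelium were low. Summed FPKM of 10 leukocyte markers was 5.65 to 6.67 in control and 1.81 to 3.28 in MMK-1 libraries. In the limma fit over every gene above 0, 3 of 9 leukocyte markers were called lower and 0 higher, where 15.3% and 28.3% of all such genes were. These were the macrophage and myeloid genes Cd68, Itgam and Csf1r, with mean FPKM of 3.17, 2.36 and 0.152 in control and 1.15, 0.938 and 0.0070 in MMK-1 libraries. Adgre1, another macrophage marker, had 1 fragment in MMK-1 replicate 2 and was at 0 in every other library. Of the other leukocyte markers Fcer1g was at most 0.728 FPKM and Tyrobp at most 0.140 in any library, Ptprc, which marks all leukocytes, was at most 0.014, and Itgax was at 0. Fibroblast markers summed to 0.048 to 0.112 FPKM in control and 0.091 to 0.147 in MMK-1 libraries, and endothelial markers to at most 0.226. The part of the remaining leukocyte signal in the interferon genes was not tested.

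**Figure D4:**
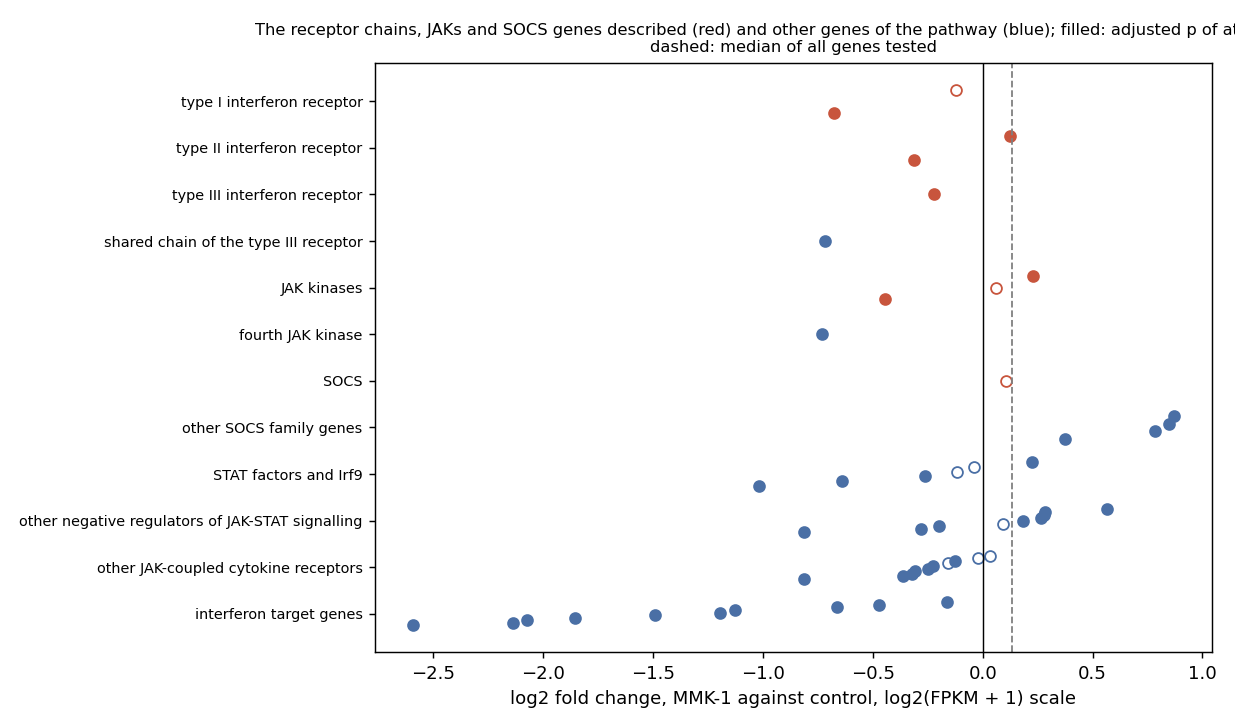
Log2 fold change on the log2(FPKM + 1) scale (horizontal axis) of tested genes of each group (rows), with the 10 genes described in red, of which 9 were tested, and other genes in blue. Filled points have a limma adjusted p of at most 0.05, and the dashed line is the median of all genes, 0.13. The 10 interferon targets that passed the filter are all below 0, but 5 of them passed only through their control level and had to differ. The 4 other SOCS genes are all above 0.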

How the data were processed

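RNA from 6 libraries of small intestinal organoids, 3 per group, was analysed. The authors deposited FPKM values, and the submitters' processing notes name HISAT2, HTSeq, R 3.2.0, DESeq2 and the build mm10 without their roles. The annotation and the use of strand in counting are not given in the sources used here. The remaining columns of the table hold gene annotation. Whole fragments and library totals were computed from the FPKM steps. A length that gave whole numbers within a tolerance of 0.005 was found for 100.0% of the 20676 genes above 0. In simulated libraries the known fragments of 19536 of 19745 genes, 98.9%, were recovered exactly. The computed fragments served for limma-voom and for counts of fragments, which cover counting error only.

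Groups came from the sample labels. The test was limma 3.58.1 (R 4.3.3, trend and Benjamini-Hochberg adjustment) on log2(FPKM + 1), with genes under a mean FPKM of 1 left out. Permutation tests were exact and two-sided. The p-values measure the spread between these samples, since separate cultures are not stated for each. Coordinates are from GENCODE vM21 and promoters from RefSeq, and all 10 genes matched. Named were the 10 genes, their partners Il10rb, Stat2, Irf9, Stat3 and Jak3, and up to 4 called genes with the largest change per list. A further partner gene that this rule names is not reported here. For lists mostly under the filter at most 3 genes were named. Usp18, Il12rb1, Il22ra1, Ptpn1, Bcl2l1, Socs5, Cish, Stat5b, Stat6, Epcam, Vil1, Krt20, Ptprc, Tyrobp, Fcer1g, Csf1r, Adgre1, Irf1 and Itgax as well as the neighbours on chromosome 16 were named after their values were seen. The 10 genes and the lists were chosen with earlier results of these data known. Scripts were tested on simulated data. Alternatives covered scaling, pseudocount, filter, unit, GC content (local regression, span 0.3, 96.3% of genes tested had a value), a replicate block and leaving out each library. Python 3.11.15, numpy 2.4.6, pandas 2.3.3, scipy 1.17.1 and matplotlib 3.10.9 were used.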

Additional observations from a re-analysis of the deposited data

How the results depend on the processing

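The 6 calls among the receptor chains and kinases were lost in only 1 gene, Ifngr1, over the 13 alternatives to the limma test. Its log2 fold change ranged from 0.0068 to 0.15 and its adjusted p from 0.0159 to 0.867. Ifnar2 ranged from -0.96 to -0.66, Tyk2 from -0.55 to -0.40, Ifngr2 from -0.43 to -0.28, Ifnlr1 from -0.32 to -0.20 and Jak1 from 0.12 to 0.24, each with its call kept. With upper-quartile scaling 1 gene in place of 2 was called higher. Jak2, not called, changed sign to -0.045 with upper-quartile scaling and to -0.048 with the GC correction, and Socs3, not called, to -0.0044 with upper-quartile scaling. The cause was not tested. Leaving out each library in turn gave 1 to 3 genes called higher and 4 to 5 called lower. Shares of all genes called in those fits are not given here, so the counts are a description only. Without control replicate 1, control replicate 2 or MMK-1 replicate 2 only Jak1 was called higher. Ifnar1 was called lower with upper-quartile scaling, with the GC correction (-0.15, adjusted p = 0.0090) and without MMK-1 replicate 3. Other pathway genes called numbered 11 to 13 higher and 25 to 30 lower in the fits that each left out 1 library, again without a share of all genes beside them. The lower counts include the 5 interferon targets that passed the filter only through their control level and had to differ.

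With the replicate block the counts were 2 higher and 4 lower, and 12 and 27 for other pathway genes, so it changed no call of the 9. For this fit too the share of all genes called is not given here. Same-numbered libraries had correlations of deviations of 0.025, -0.040 and 0.028. With 3 libraries per group these values cannot show whether same-numbered libraries shared mice or a culture. Of the 10 genes Socs1 alone was under the filter, on at most 18 fragments a library. The exact test of 3 against 3 libraries cannot pass the threshold, and leaving out 1 library raises its smallest p to 0.200. No group was large enough for a test of outlying libraries.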
